A study of Mus musculus with 4 samples.

Results

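The genes described here are 31 genes of B lymphocytes and their precursors, measured in RNA of the mouse cochlea. They were chosen by gene name and split into 7 progenitor genes (*Rag1*, *Rag2*, *Dntt*, *Vpreb1*, *Vpreb2*, *Vpreb3* and *Igll1*) and 24 mature genes, out of 30028 gene names on the array. Of the 31 genes, 28 gave a signal well above background on at least 1 array, 6 of the progenitor and 22 of the mature genes, among 21961 such gene names in all. *Vpreb2*, *Blk* and *Il7r* did not on any array. The split follows gene names and is not exact, because *Ebf1*, *Pax5*, *Blnk*, *Il7r* and *Cd24a*, which stand among the mature genes, are also known from B cell precursors.

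The study asked how the cochlea responds when its outer hair cells (OHCs) are killed by diphtheria toxin (DT). *Prestin*-*hDTR* mice carry a modified human HB-EGF, the DT receptor (hDTR), under the promoter of prestin (*Slc26a5*), a gene of OHCs, and the transgenic mice came from 1 founder line and share the B6J background with the wild-type mice. The 4 groups were wild-type and *Prestin*-*hDTR* mice, each untreated and DT-treated, all 5 weeks old, and the DT-treated groups had received 50 μg/kg of DT 7 days earlier. Each group gave pooled RNA of both sexes (n = 8 cochleae, from 4 females and 4 males) for 1 Agilent array. The paper counts the 8 as cochleae per mouse, and how many mice gave them is not clear. The wild-type groups have no transgenic receptor, and DT-treated wild-type mice serve as the control for the injection.

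B cells are made in bone marrow from progenitors that cut and join immunoglobulin gene segments. The RAG proteins make the cuts and terminal deoxynucleotidyl transferase, the product of *Dntt*, adds bases at the joints. A precursor with a finished heavy chain shows it on the surface with the surrogate light chain, built from VpreB and λ5 (*Igll1*), and signals through the CD79A and CD79B pair, which mature B cells keep for their antigen receptor. The cochlea lies in a bony capsule, and dissected cochlear tissue can hold bone marrow as well as blood.

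The signal of a gene is given as its relative signal, the background-subtracted intensity of its probe divided by the 75th percentile of all probes on that array, and it can be compared between arrays but not between genes. Where several probes of a gene were measured, the brightest was used. With 1 array in each group, differences could not be checked against replicates and were not tested, and 2-fold is a size and not a test. Precision is limited by the number of arrays. Where 4 values follow each other without a group name, their order is wild-type untreated, wild-type after DT, *Prestin*-*hDTR* untreated and *Prestin*-*hDTR* after DT. The error given with a log2 ratio combines the errors that the scanner software states for the spots and does not cover the spread between mice. It had a median of 0.23 over the genes and comparisons, between 0.20 and 1.47. A signal that did not clear the background on 1 of the compared arrays was raised to the lowest signal on that array that did, if it lay below it. The fold is then written as at least N-fold. A dim signal that lay above that value, as those of *Fcrla* did, was kept as read, and the fold is then not a lower bound. In pooled tissue, fewer cells of a type and less RNA per cell cannot be told apart. The share of probes well above background was lower on the arrays of DT-treated mice (62.5% in wild-type and 62.2% in *Prestin*-*hDTR* mice) than on those of untreated mice (67.0% and 70.6%), and the lowest signal well above background was higher on them (0.0224 and 0.0230 against 0.0164 and 0.0119). The median SD between repeated spots was 0.061 to 0.071 on the log2 scale. Markers of the cochlea were present: 12 of 12 listed genes, such as *Coch* and *Otos*, were measured. For OHC markers the median log2 ratio was -2.77 after DT in *Prestin*-*hDTR* mice.

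Sequences are shown for the surrogate light chain genes whose probes lay at or below the limit of detection, and for promoters of 3 genes, chosen after their values were seen, that had their highest signal in DT-treated wild-type mice. The probe of *Igll1* (chr16:16861104-16861163, mm9, minus strand) and that of *Vpreb2* (chr16:17981114-17981173, mm9, plus strand) are 60 bases long, as the array files give them. In the *Vpreb2* probe, the capitals mark a stop codon at its end. *Vpreb1* and *Vpreb2* are close copies of each other, and whether their probes also bind the other transcript was not tested. The probes of *Igll1* and *Vpreb1* lie 7395 bases apart.
*Igll1* probe: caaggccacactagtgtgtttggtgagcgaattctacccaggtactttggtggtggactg
*Vpreb2* probe: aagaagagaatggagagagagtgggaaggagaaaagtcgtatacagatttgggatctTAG

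The promoters are those of RefSeq on GRCm38.p6, 250 bases up to the transcription start, for *Vpreb3* (chr10:75948050-75948299, plus strand), *Cd79a* (chr7:24897247-24897496, plus strand) and *Vpreb1* (chr16:16869256-16869505, minus strand). Capitals mark matches on either strand to CAGGTG, the E-box bound by E2A, to the Ets motif AGGAAGT and to the octamer ATGCAAAT. *Vpreb3* has an Ets match 165 bases and an octamer 45 bases before the start, *Cd79a* has an E-box at 154 and an Ets match at 55 bases, and *Vpreb1* has an E-box at 88 bases.
*Vpreb3* promoter: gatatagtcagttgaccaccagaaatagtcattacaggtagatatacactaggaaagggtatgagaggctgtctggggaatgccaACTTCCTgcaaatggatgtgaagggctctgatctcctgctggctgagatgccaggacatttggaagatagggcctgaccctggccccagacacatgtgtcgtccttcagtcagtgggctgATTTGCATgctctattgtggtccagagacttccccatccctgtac
*Cd79a* promoter: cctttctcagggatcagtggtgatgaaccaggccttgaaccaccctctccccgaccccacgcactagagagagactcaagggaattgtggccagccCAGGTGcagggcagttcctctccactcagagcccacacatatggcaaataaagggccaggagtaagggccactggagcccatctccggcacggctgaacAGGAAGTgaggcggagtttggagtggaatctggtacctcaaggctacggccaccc
*Vpreb1* promoter: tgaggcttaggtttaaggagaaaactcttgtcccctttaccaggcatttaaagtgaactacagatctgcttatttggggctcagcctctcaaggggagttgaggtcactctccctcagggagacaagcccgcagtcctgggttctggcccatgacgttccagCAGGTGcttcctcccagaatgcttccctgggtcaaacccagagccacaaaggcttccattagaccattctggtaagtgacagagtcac

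Promoters of 26 of the 31 genes were listed, and 8 motifs were searched on both strands in their 250 bases and in those of 27025 genes in all. CAGGTG occurred in 14 of the 26 promoters (53.8%) and in 19.4% of all promoters. AGGAAGT occurred in 7 (26.9%) and in 8.80% of all, and the octamer in 2 (7.69%) and in 1.81%. The EBF1 core CCCNNGGG was in 4 (15.4%) against 13.4% of all, and the longer EBF1 site, this core with a T before and an A after it, was in 1, that of *Cd22* (3.85%), against 0.914%. TGTGGTT, bound by RUNX proteins, was found in 4 (15.4%) against 5.08%, TGGGAA, bound by Ikaros, in 8 (30.8%) against 24.1%, and GAGGAAG, bound by PU.1, in 4 (15.4%) against 12%. The EBF1 sites thus overlap, and GAGGAAG and AGGAAGT can overlap. A match is a run of letters and not a bound site.

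**Figure D1:**
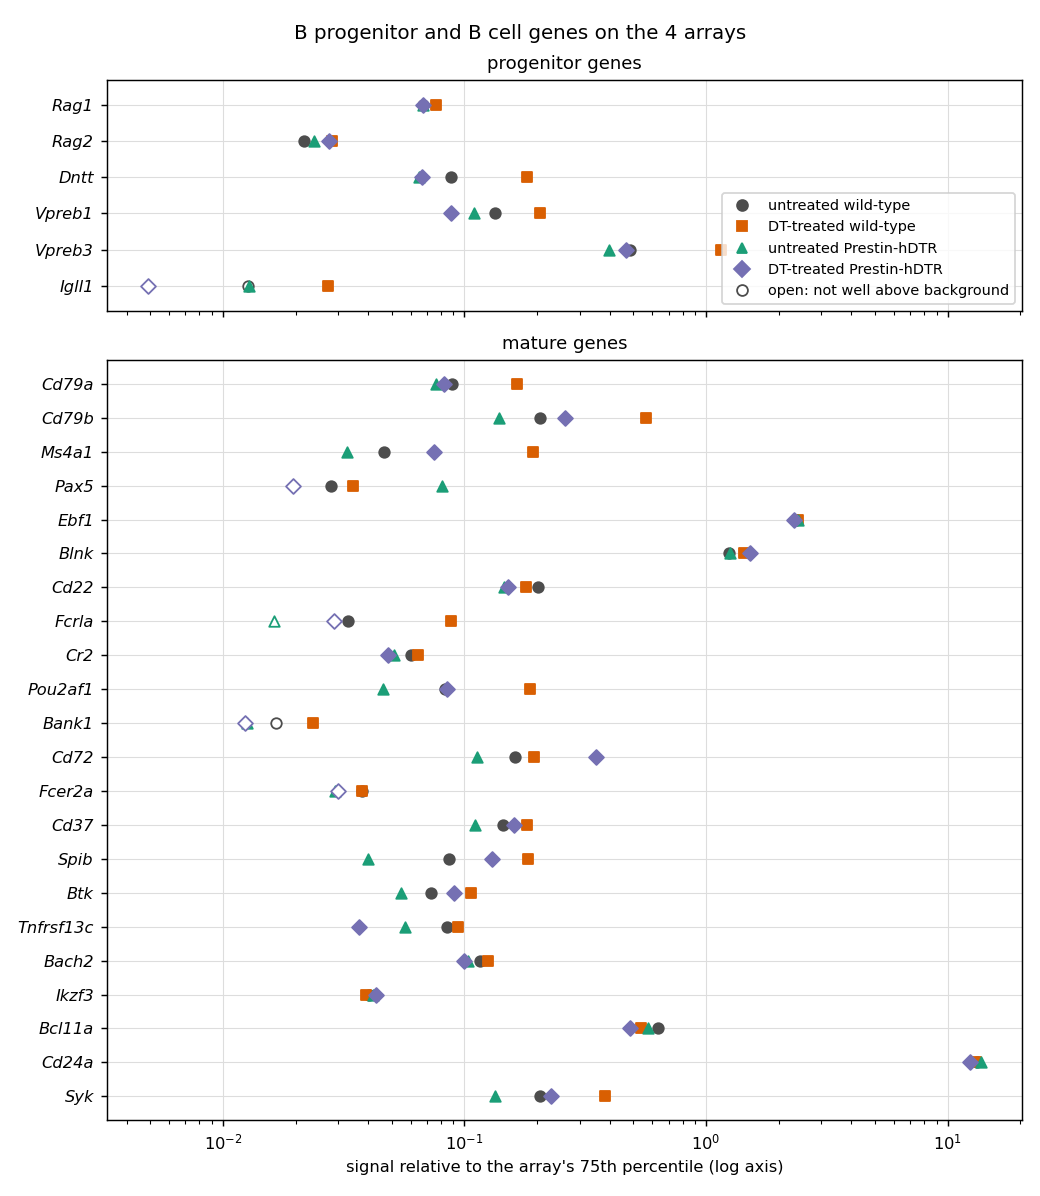
Relative signal (intensity over the 75th percentile of the array, log axis) of the 28 measured genes, with 1 point for each of the 4 arrays. Open points were not well above background. The DT-treated wild-type array (squares) is the highest for *Vpreb3*, *Dntt*, *Cd79b* and *Ms4a1*, whereas the points of *Ebf1* and *Cd24a* nearly coincide.

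Among the recombination genes, *Rag1* and *Rag2* were dim and differed little between the arrays. *Rag1* had a relative signal of 0.0671 without and 0.0763 with DT in wild-type mice, and of 0.0675 without and 0.0673 with DT in *Prestin*-*hDTR* mice. For *Rag2* the values were 0.0217, 0.0283, 0.0239 and 0.0274. No log2 ratio of *Rag1* or *Rag2* in the 4 comparisons exceeded its spot error. *Dntt* (chr19:41133936-41133995, mm9) stood at 0.0880 without and 0.182 with DT in wild-type mice, and at 0.0648 without and 0.0666 with DT in *Prestin*-*hDTR* mice. Only the DT-treated wild-type array was high for *Dntt*. It was 2.07-fold higher after DT in wild-type mice (log2 ratio 1.05, error 0.21), whereas the log2 ratio after DT in *Prestin*-*hDTR* mice was 0.04 (error 0.23).

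*Vpreb3* and the measured genes of the surrogate light chain, *Vpreb1* and *Igll1*, had their highest signal in DT-treated wild-type mice. Of the chain's genes, only *Vpreb1* was well above background on all 4 arrays. *Vpreb3* (chr10:75412326-75412385, mm9), which encodes a VpreB-like protein of pre-B cells, had a relative signal of 0.484 without and 1.16 with DT in wild-type mice, against 0.395 without and 0.467 with DT in *Prestin*-*hDTR* mice. It was thus 2.39-fold higher after DT in wild-type mice (log2 ratio 1.26, error 0.20) and 1.18-fold higher after DT in *Prestin*-*hDTR* mice (0.24, error 0.21). *Vpreb1* (chr16:16868559-16868618, mm9), the V-like part of the surrogate chain, stood at 0.134, 0.205, 0.109 and 0.0881. The DT-treated wild-type array was again the highest, and here the DT-treated *Prestin*-*hDTR* array was the lowest. *Igll1*, the gene of λ5, was well above background at 0.0273 in wild-type mice with DT and at 0.0129 in *Prestin*-*hDTR* mice without DT, but not in the other two groups (0.0127 in wild-type and 0.00491 in *Prestin*-*hDTR* mice). It was at least 1.66-fold higher after DT in wild-type mice. *Vpreb2* was not well above background at 0.0198, 0.0272, 0.0139 and 0.00781.

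Of the mature genes, those of the antigen receptor complex and CD20 had their highest signal in DT-treated wild-type mice. *Cd79a* (chr7:25686823-25686882, mm9), which encodes the signalling chain Igα, stood at 0.0892 without and 0.166 with DT in wild-type mice, and at 0.0761 without and 0.0822 with DT in *Prestin*-*hDTR* mice. Its partner *Cd79b* (chr11:106172780-106172839, mm9), encoding Igβ, had relative signals of 0.206, 0.563, 0.139 and 0.262. For *Ms4a1* (chr19:11325367-11325426, mm9), which encodes CD20, they were 0.0466, 0.192, 0.0327 and 0.0747. Both *Cd79b* and *Ms4a1* were higher in the DT-treated than in the untreated array of each genotype, while for *Cd79a* the ratio in *Prestin*-*hDTR* mice was within its error. After DT in wild-type mice, *Ms4a1* was 4.13-fold higher (log2 ratio 2.05, error 0.26), *Cd79b* 2.73-fold (1.45, error 0.21) and *Cd79a* 1.86-fold (0.89, error 0.21). In *Prestin*-*hDTR* mice the same ratios were 2.28-fold for *Ms4a1* (1.19, error 0.28), 1.88-fold for *Cd79b* (0.91, error 0.21) and 1.08-fold for *Cd79a* (0.11, error 0.22).

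Other surface receptors of B cells did not share one pattern. *Fcrla*, an Fc receptor-like protein of B cells, stood at 0.0330 in untreated and 0.0884 in DT-treated wild-type mice and was not well above background in either *Prestin*-*hDTR* group (0.0162 and 0.0290). *Tnfrsf13c*, which encodes the receptor for the survival factor BAFF, had 0.0845, 0.0940, 0.0567 and 0.0368, so that both *Prestin*-*hDTR* arrays lay below both wild-type arrays. Another probe of *Tnfrsf13c* was well above background only in untreated *Prestin*-*hDTR* mice (0.0378), where the brightest probe was not at its highest, so the probes of this gene disagree. *Cd22*, an inhibitory receptor, ranged from 0.145 in untreated *Prestin*-*hDTR* to 0.203 in untreated wild-type mice. *Cr2*, the complement receptor CD21, ranged from 0.0484 in DT-treated *Prestin*-*hDTR* to 0.0640 in DT-treated wild-type mice. *Fcer2a*, the low-affinity IgE receptor CD23, stood at 0.0377, 0.0376 and 0.0292, and at 0.0300 in DT-treated *Prestin*-*hDTR* mice, where it was not well above background. *Cd37*, a tetraspanin of leukocytes, ranged from 0.110 in untreated *Prestin*-*hDTR* to 0.181 in DT-treated wild-type mice.

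*Cd72*, a receptor of B cells that is also known from macrophages, was highest on the DT-treated *Prestin*-*hDTR* array, and so were *Blnk* and *Ikzf3*, but of these only *Cd72* reached 2-fold in a comparison. Its relative signal was 0.162 without and 0.195 with DT in wild-type mice, and 0.113 without and 0.350 with DT in *Prestin*-*hDTR* mice. It was 3.10-fold higher in DT-treated than in untreated *Prestin*-*hDTR* mice (log2 ratio 1.63, error 0.21) and 1.80-fold higher than in DT-treated wild-type mice (0.85, error 0.21). Another probe of *Cd72* gave 3.34-fold and 1.99-fold in these comparisons. It lies at chr4:43460607-43460666 (mm9) and overlaps the brightest probe (chr4:43460596-43460655), so it is not an independent reading. On the same array, macrophage markers were also high: 12 of the 14 listed had a log2 ratio above 0 against untreated *Prestin*-*hDTR* mice, with a median of 0.84. Their summed relative signal was 28.1, 25.1, 23.0 and 34.4, and their part in the signal of *Cd72* was not tested.

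The transcription factors fell into a group that differed between the arrays and a group that differed little. *Pou2af1*, the B cell co-activator OBF-1, stood at 0.0831 without and 0.186 with DT in wild-type mice, and at 0.0462 without and 0.0844 with DT in *Prestin*-*hDTR* mice. *Spib*, an Ets factor of B cells and plasmacytoid dendritic cells, had 0.0868, 0.184, 0.0400 and 0.130. The untreated *Prestin*-*hDTR* array was the lowest for both, and the DT-treated array was the higher one in both genotypes. After DT, *Spib* was 2.12-fold higher in wild-type mice (log2 ratio 1.09, error 0.22) and 3.26-fold higher in *Prestin*-*hDTR* mice (1.71, error 0.24). *Pax5*, the factor that commits cells to the B lineage, ran the other way, with 0.0280 and 0.0347 in wild-type mice without and with DT and 0.0809 in untreated *Prestin*-*hDTR* mice. After DT in *Prestin*-*hDTR* mice it was not well above background (0.0195). The single high array for *Pax5* was thus the one on which *Ms4a1*, *Cd79b*, *Pou2af1* and *Spib* were lowest, and *Pax5* has no other measured probe to set beside this one. *Ebf1*, which acts with *Pax5* in B cells and is also expressed in stromal cells, lay between 2.30 and 2.41. *Bach2* lay between 0.0998 and 0.125, *Ikzf3* (Aiolos) between 0.0391 and 0.0430, and *Bcl11a*, a factor also known from neurons, between 0.483 and 0.635. Another probe of *Bach2* (0.0265) was well above background only on the array of *Prestin*-*hDTR* mice with DT, and one further probe of *Bcl11a* was 3.84-fold higher there than in untreated *Prestin*-*hDTR* mice, unlike the brightest probe, which had a log2 ratio of -0.26.

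Among the kinases and adaptors that carry the signal of the antigen receptor, *Syk* stood at 0.205 without and 0.382 with DT in wild-type mice, and at 0.133 without and 0.228 with DT in *Prestin*-*hDTR* mice. *Btk*, the kinase lacking in X-linked agammaglobulinaemia, had the same order of arrays, at 0.0726, 0.106, 0.0546 and 0.0902. Both kinases are also found in myeloid cells. *Blnk*, the adaptor between them, lay between 1.25 and 1.53, and its highest array was DT-treated *Prestin*-*hDTR*. *Bank1*, a scaffold protein of B cells, stayed at 0.0124 to 0.0237, and was well above background in wild-type mice with DT and in *Prestin*-*hDTR* mice without DT only. *Blk*, a Src family kinase of B cells, had at most 0.0141. *Il7r*, the receptor for the growth factor of B cell precursors, had at most 0.0237 and was not well above background there either. *Cd24a*, a surface protein also found on epithelial cells and neurons, ranged only from 12.4 to 13.7.

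Across the comparisons, the DT-treated and untreated wild-type mice were set side by side first, since this pair has no transgene. Of the 28 genes compared, 7 were higher by 2-fold or more in DT-treated mice (*Dntt*, *Vpreb3*, *Cd79b*, *Ms4a1*, *Fcrla*, *Pou2af1* and *Spib*), where 1.58% of all genes compared were, and 0 were lower by 2-fold, against 1.14% of all genes. The median log2 ratio was 0.67 over the 6 progenitor genes and 0.29 over the 22 mature genes, and -0.04 over all genes. *Igll1* and *Bank1* were well above background on the DT-treated array alone and could not have had a ratio below 0. Of the genes well above background on both arrays, 5 of 5 progenitor genes were above 0, with a median of 0.62, and 16 of 21 mature genes were, with a median of 0.26. The mature genes known mainly from B cells had a median of 0.70 (12 genes), and those known also from other cell types had one of 0.16 (10 genes), none of them at 2-fold. Where the background was corrected by normexp in place of the scanner software, 3 genes and not 7 were at 2-fold or more. Over all genes, 144 of 20441 and not 319 of 20184 were then higher by 2-fold. *Vpreb3*, *Cd79b* and *Ms4a1* were so in all 8 alternatives.

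**Figure D2:**
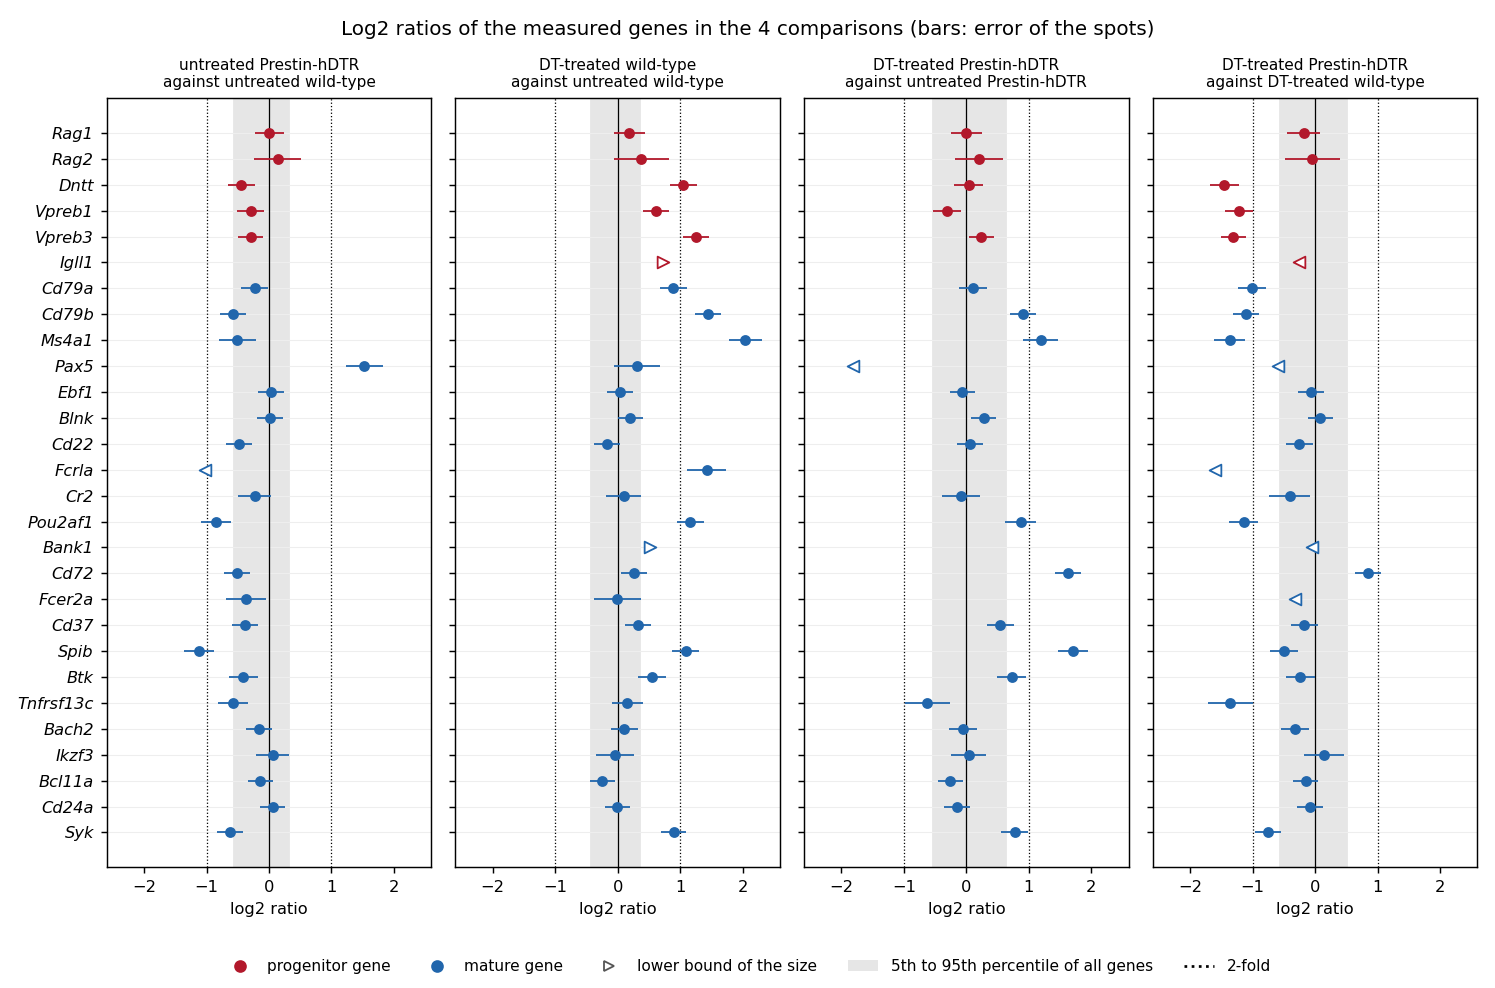
Log2 ratios of the 28 measured genes in the 4 comparisons, with progenitor genes in red and mature genes in blue. Bars are the error of the spots, the grey band spans the 5th to 95th percentile of all genes, and dotted lines mark 2-fold. Open triangles mark ratios in which 1 of the signals was not well above background. The legend calls them lower bounds, which holds only where that signal was raised to the floor. It was not raised for *Fcrla* and *Fcer2a*, nor for *Bank1* in the wild-type pair. In DT-treated against untreated wild-type mice most points lie to the right of 0, and in DT-treated *Prestin*-*hDTR* against DT-treated wild-type mice most lie to the left.

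In untreated *Prestin*-*hDTR* against untreated wild-type mice, the comparison of the genotypes without DT, 26 genes could be compared. *Pax5* was 2.89-fold higher (log2 ratio 1.53, error 0.29), and it was the 1 gene higher by 2-fold, against 1.06% of all genes. Lower by 2-fold or more were 2 genes, *Spib* (2.17-fold) and *Fcrla* (2.03-fold, from a signal in *Prestin*-*hDTR* mice not well above background), against 2.49% of all genes. The smaller differences ran mostly one way. The median log2 ratio was -0.39 over 21 mature genes and -0.29 over 5 progenitor genes, while that of all genes was -0.01. It was below 0 for 15 of the 20 mature and 3 of the 5 progenitor genes well above background on both arrays. *Pou2af1* (-0.85), *Syk* (-0.62), *Tnfrsf13c* (-0.58) and *Cd79b* (-0.57) were among those that did not reach 2-fold. With normexp, 0 genes were at 2-fold in either direction, where 71 of 20746 genes in all were higher and 207 lower. Among genes well above background on all 4 arrays, 0 were higher by 2-fold and 1, *Spib*, was lower, where 38 and 98 of 18249 genes in all were.

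DT-treated against untreated *Prestin*-*hDTR* mice were compared over 24 genes, in the pair in which OHCs were depleted. *Ms4a1*, *Cd72* and *Spib* were the 3 genes higher by 2-fold or more, against 2.9% of all genes. *Pax5* was at least 3.52-fold lower and was the 1 gene lower by 2-fold, against 1.52% of all genes. The progenitor genes had a median log2 ratio of 0.04 over 5 genes, between -0.31 for *Vpreb1* and 0.24 for *Vpreb3*. The mature genes had a median of 0.11 over 19 genes, and all genes had one of -0.01. Of the 18 mature genes well above background on both arrays, 12 were above 0 and 6 below. *Cd79b* (0.91), *Pou2af1* (0.87), *Syk* (0.77) and *Btk* (0.72) were above the 95th percentile of all genes, 0.64, and *Tnfrsf13c* (-0.63) was below the 5th, -0.53. Among genes well above background on all 4 arrays, 0 were lower by 2-fold, where 132 of 18249 genes in all were. The median of the mature genes was 0.41 without a filter on dim probes and 0.61 with the mean over the probes of a gene.

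Between the 2 DT-treated groups, which differ by the transgene and the loss of OHCs, 28 genes were compared. Lower by 2-fold or more in *Prestin*-*hDTR* mice were 9 genes, against 1.95% of all genes, and 0 were higher, against 1.52% of all genes. The 9 were *Dntt* (2.73-fold, log2 ratio -1.45, error 0.23), *Ms4a1* (2.57-fold), *Tnfrsf13c* (2.56-fold), *Vpreb3* (2.47-fold), *Vpreb1* (2.33-fold), *Pou2af1* (2.21-fold), *Cd79b* (2.15-fold), *Cd79a* (2.02-fold) and *Fcrla* (3.05-fold, from a signal in *Prestin*-*hDTR* mice not well above background). The median log2 ratio was -0.73 over the 6 progenitor genes and -0.32 over the 22 mature genes. *Igll1*, *Pax5*, *Fcrla*, *Bank1* and *Fcer2a* were well above background in DT-treated wild-type mice alone, which fixed the sign of their ratios. Of the genes well above background on both arrays, 5 of 5 progenitor genes were below 0, with a median of -1.22, and 15 of 18 mature genes were, with a median of -0.29. The 3 above 0 were *Cd72*, *Ikzf3* and *Blnk*. For the mature genes known mainly from B cells the median was -0.80 over 12 genes and -1.06 over the 8 well above background on both arrays, all of them below 0. For those known also from other cells it was -0.12, and for all genes it was 0.01. With normexp, 5 genes were lower by 2-fold, and over all genes 202 of 19504 were, in place of 380 of 19513. The median of the progenitor genes lay between -1.26 and -0.25 over the alternatives, depending on how dim signals were treated. This comparison shares the DT-treated wild-type array with that of the wild-type pair, so the same high array enters both with opposite signs.

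Over the 23 genes well above background on all 4 arrays, the DT-treated wild-type array was the highest for 17, where it was the highest for 15.8% of all genes. It was so for 5 of 5 progenitor and 12 of 18 mature genes, and for 7 of the 8 mature genes known mainly from B cells. The exceptions were *Cd22* and *Bcl11a*, highest in untreated wild-type, *Cd24a*, highest in untreated *Prestin*-*hDTR*, and *Blnk*, *Cd72* and *Ikzf3*, highest in DT-treated *Prestin*-*hDTR* mice. The untreated *Prestin*-*hDTR* array was the lowest for 12 of the 23, against 17.3% of all genes. The summed relative signal of the 6 measured progenitor genes was 0.808 without and 1.68 with DT in wild-type mice, and 0.673 without and 0.722 with DT in *Prestin*-*hDTR* mice. For the 12 mature genes known mainly from B cells it was 0.974, 1.81, 0.726 and 0.961. Most of the progenitor sum was the signal of *Vpreb3*, and without it the other 5 genes summed to 0.323, 0.519, 0.278 and 0.254. The sums were thus highest in DT-treated wild-type mice with and without *Vpreb3*, whereas the lowest array was that of untreated *Prestin*-*hDTR* mice with it and of DT-treated *Prestin*-*hDTR* mice without it.

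**Figure D3:**
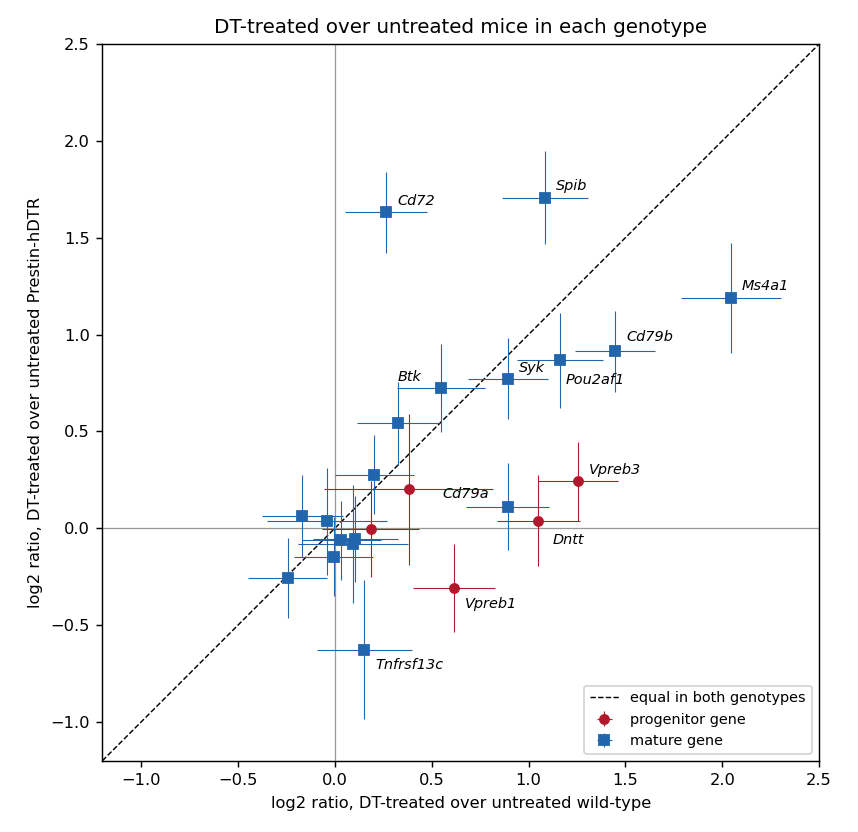
Log2 ratio of DT-treated over untreated mice in wild-type (horizontal axis) and in *Prestin*-*hDTR* mice (vertical axis) for the 23 genes well above background on all 4 arrays, with bars for the error of the spots. All 5 progenitor genes lie below the dashed line of equal ratios, and *Cd72* and *Spib* lie above it.

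The ratios of DT-treated to untreated mice in the 2 genotypes come from different arrays and can be set side by side. For the progenitor genes measured on all 4 arrays, the log2 ratio was smaller in *Prestin*-*hDTR* than in wild-type mice in 5 of 5, with a median difference of -0.93. It was -1.01 for *Dntt* and for *Vpreb3*, but only -0.19 for *Rag1* and -0.18 for *Rag2*. For the mature genes it was smaller in 11 and larger in 7 of 18, with a median difference of -0.11, and over all genes the median difference was 0.02. Among these 18, *Ms4a1* (-0.86), *Cd79a* (-0.78) and *Tnfrsf13c* (-0.78) had the most negative differences, and *Cd72* (1.37) and *Spib* (0.62) the most positive. *Pax5*, which was not well above background on 1 array, had a difference of -2.12 with its signal there at the floor. These differences have no replicates and were not tested.

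Further genes of the B lineage, from a list of 33 that holds none of the 31, were also highest in DT-treated wild-type mice in the case of several surface markers. In DT-treated against untreated wild-type mice, 4 of 30 compared were higher by 2-fold (1.58% of all genes) and 0 lower (1.14%), with a median log2 ratio of 0.10. They included *Faim3* (1.92), the Fc receptor for IgM, *Ly6d* (1.69), a marker of B-committed progenitors, and *Ltb* (1.21), which encodes lymphotoxin β. In DT-treated *Prestin*-*hDTR* against DT-treated wild-type mice 4 of 28 were lower by 2-fold (1.95% of all genes), among them *Ly6d* (-1.39), *Faim3* (-1.32) and *Bst1* (-1.19), and 0 were higher (1.52%). In DT-treated against untreated *Prestin*-*hDTR* mice, the 4 of 29 higher by 2-fold (2.9% of all genes) were *Vav1*, *Ly6d*, *Irf8* and *Ikzf1*, between 1.05 and 1.11. Of these, *Ly6d* was highest in DT-treated wild-type mice. *Vav1*, *Irf8* and *Ikzf1* were highest in DT-treated *Prestin*-*hDTR* mice, as the summed macrophage markers were, and the part of macrophages in their signal was not tested. In untreated *Prestin*-*hDTR* against untreated wild-type mice 0 of 30 were at 2-fold (1.06% of all genes were higher and 2.49% lower), and 23 were below 0.

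Plasma cell genes and the immunoglobulin genes on the array did not follow the B cell genes as a list. Of 9 plasma cell genes, 6 could be compared in DT-treated against untreated wild-type mice, with a median log2 ratio of 0.07 and 0 at 2-fold. *Mzb1*, which is also expressed in B cells, had the largest of them at 0.68. Of 9 immunoglobulin gene names, 5 were measured, each named for a variable segment. *Iglv1*, a λ light chain segment, had relative signals of 0.0390, 0.171, 0.0388 and 0.0573, 4.38-fold higher after DT in wild-type mice. *Igh-VJ558* had 0.131 in wild-type mice without DT and was not well above background there after DT (0.00722), while it had 0.0405 without and 0.260 with DT in *Prestin*-*hDTR* mice. A κ light chain segment ranged from 0.0845 to 0.113 and *Igh-V3660* from 0.0599 to 0.0661.

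Some marker lists of other blood cells shared the high DT-treated wild-type array of the B cell genes, and others did not. The macrophage markers had their highest sum, 34.4, in DT-treated *Prestin*-*hDTR* mice. Neutrophil lineage markers had a log2 ratio above 0 in DT-treated against untreated wild-type mice for 14 of 14 genes, with a median of 0.72. In the *Prestin*-*hDTR* pair 13 of 13 were above 0, with a median of 0.71, where the B progenitor genes had one of 0.04. The mature genes known mainly from B cells had a median of 0.11 over 9 genes in that pair. It was 0.49 over the 8 of them well above background on both arrays, with 6 above 0 and 2 below. The neutrophil markers were below 0 in untreated *Prestin*-*hDTR* against untreated wild-type mice for 14 of 14, with a median of -1.38. Their summed relative signal was 39.5, 62.3, 14.3 and 24.5. For 12 erythroid markers it was 7.90, 12, 9.15 and 10.6, and 11 of 12 had a log2 ratio above 0 in the wild-type pair, with a median of 1.29. Most of the erythroid sum was the signal of *Hemgn*, at 5.19, 6.07, 6.24 and 6.57. Between the untreated groups the erythroid markers had a median log2 ratio of 0.01, with 5 genes above 0 and 5 below. The 9 platelet and megakaryocyte markers summed to 3.48, 5.35, 1.77 and 2.61. All 3 sums were highest in DT-treated wild-type mice, as both B cell sums were. Cell cycle genes were higher after DT in both genotypes, with medians of 1.21 in wild-type and 1.26 in *Prestin*-*hDTR* mice. T cell markers had medians of -0.19 and -0.10 in the same pairs, and *Cd3d*, *Cd3g*, *Cd8a* and *Cd8b1* of the 15 listed were not well above background on any array. The part of bone marrow or blood in the differences of the B cell genes was not tested.

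**Figure D4:**
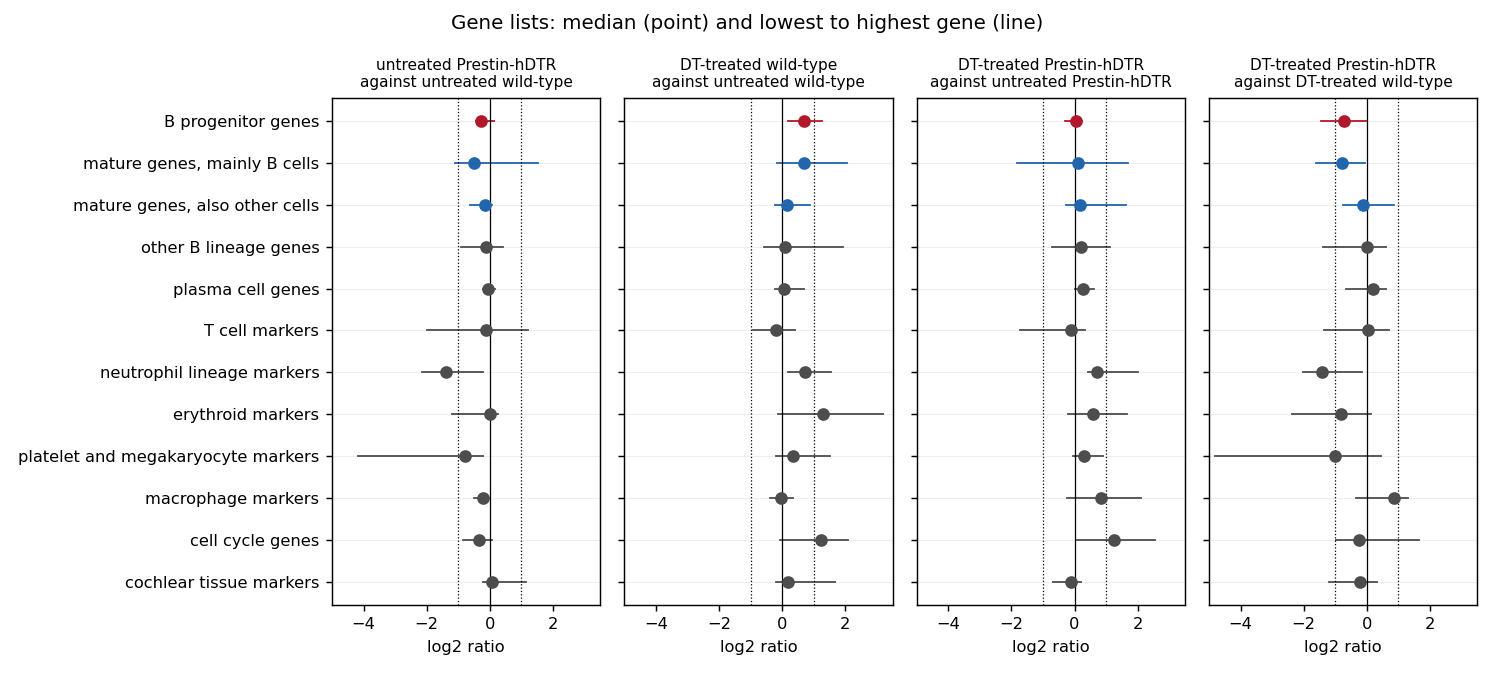
Median log2 ratio (point) and lowest to highest gene (line) of 12 gene lists in the 4 comparisons, with dotted lines at 2-fold. In DT-treated against untreated *Prestin*-*hDTR* mice the median of the B progenitor genes lies at 0.04 and that of the neutrophil lineage markers at 0.71, and the median of the macrophage markers lies above 0 in both comparisons of DT-treated *Prestin*-*hDTR* mice.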

How the data were processed

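Cochlear RNA, labelled with Cy3, was hybridised to 1 Agilent array per group, 4 arrays in all. The authors scanned the arrays, ran Agilent Feature Extraction 11.5.1.1 and deposited the intensity of each spot on a linear scale, with the background subtracted and without scaling between arrays. A deposited table holds the same intensity divided by the 75th percentile of each array, which the authors' methods name, and it was used as an alternative. Its values are linear and not log2.

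Of 44397 features per array, 1377 controls and 149 to 228 outlier spots were left out, spots of a probe were averaged over 39429 probes, and a flag held for a probe when over 0.5 of its spots had it. Signals were scaled to the 75th percentile over the probes of an array before log2 was taken. A gene entered a comparison if the brightest of its probes exceeded background clearly, as the scanner software flags it, on 1 or both arrays. No fold was given where the dim signal, or the floor on its array (0.0119 to 0.0230), exceeded the signal that cleared background. With 1 array per group there was no test, and calls are at 2-fold as in the authors' methods. The named genes are the 31 genes, and, of other lists, the 4 with the largest log2 ratio (for immunoglobulin genes, the 4 brightest). The values of 1 gene of these lists are not reported here. Macrophage, neutrophil and other marker lists are given by counts, medians and sums, with *Hemgn* named because it is the brightest of the erythroid markers. The 31 genes, the lists and the 9 preset alternatives were chosen with earlier results of these data known. On simulated data made from the mean of the 4 arrays (21961 genes), all 100 raised and all 100 lowered genes were called, and 0 unchanged ones. The planted changes were larger than 2-fold, in genes well above background on all 4 arrays, with less noise than the spot errors of the 31 genes. This checks the calculation and cannot show how well changes of dim genes are found. Python 3.11.15, numpy 2.4.6, pandas 2.3.3 and matplotlib 3.10.9 were used, with limma 3.58.1 in R 4.3.3 for normexp (offset 50). Gene names are those of the array files, and all 31 were found in the RefSeq gene table. Probe positions are in mm9, per the file headers and rows.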

Additional observations from a re-analysis of the deposited data

Results flagged for a closer look

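*Vpreb1* differed in opposite directions after DT in the 2 genotypes, beyond the error of its spots in both. Its log2 ratio was 0.62 (error 0.21) in wild-type mice and -0.31 (error 0.23) in *Prestin*-*hDTR* mice, a difference of -0.93. The ratio of 0.62 lay above the 95th percentile of all genes in its pair, 0.36. That of -0.31 lay within the 5th to 95th percentile in its pair, -0.53 to 0.64. With 1 array per group, this difference was not tested.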

How the results depend on the processing

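The 9 alternatives gave 142 values for medians and counts of the 31 genes, of which 125 stayed near the main value and 17 moved. Of 834 values of single genes, 811 stayed and 23 moved. A change of sign was looked for only in values at 2-fold or more, so smaller values may have changed sign. Genes at 2-fold or more kept their sign in all 7 or 8 alternatives run for each. With normexp, 0 genes were higher and 0 lower by 2-fold in untreated *Prestin*-*hDTR* against untreated wild-type mice, 3 were higher in DT-treated against untreated wild-type mice, and 5 were lower in DT-treated *Prestin*-*hDTR* against DT-treated wild-type mice. Over all genes these counts fell too, to 71 higher and 207 lower, 144 higher, and 202 lower, from 223, 527, 319 and 380. The offset of normexp draws dim signals together. Where only genes well above background on all 4 arrays were kept, which leaves fewer genes, 0 were higher and 1 lower in untreated *Prestin*-*hDTR* mice, and 0 were lower in DT-treated against untreated *Prestin*-*hDTR* mice. Of the 18249 genes kept in all, 38 were higher and 98 lower in the former comparison, and 132 were lower in the latter. The median of the progenitor genes between the DT-treated groups was then -1.22. Without a filter on dim probes that median was -0.25, and the median of the mature genes in DT-treated against untreated *Prestin*-*hDTR* mice was 0.41. Without a floor the former median was -1.26, and 2 genes were lower in DT-treated against untreated *Prestin*-*hDTR* mice, where 985 of 21454 genes in all were. With the mean over the probes of a gene, the mature median in that pair was 0.61, with 2 genes lower by 2-fold, and 1 gene was higher between the DT-treated groups. Over all genes, 345 of 20001 were lower in that pair and 315 of 19509 higher between the DT-treated groups. Restricted to the genes known mainly from B cells, the mature medians were 0.70 in the wild-type pair and -0.80 between the DT-treated groups. For these other settings the cause was not tested. Depth of signal limits *Igll1*, *Bank1* and *Rag2*, which lay near the floor, and *Fcrla*, *Pax5* and *Fcer2a*, which did not clear background on every array. For probes below a relative signal of 0.2, the SD of repeated spots was 0.115 to 0.130 on the log2 scale. No paired analysis was possible because each group has 1 array.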
